A study of Mus musculus with 4 samples.

Results

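Peaks that were called in the same place in both lists, but with different borders, were described in mouse liver RNA immunoprecipitation sequencing (RIP-seq). A pair was 1 peak of the AAV-GFP list and 1 of the AAV-NAT10 list that shared 1 base or more and differed in their start, their end or both. Peaks with the same start and end in both lists were left out. Of the 29890 overlapping pairs, 4889 (16.4%, 95% interval 15.9 to 16.8) had differing borders and 25001 had identical ones. The 4889 pairs took in 4702 of the 33968 AAV-GFP peaks (13.8%) and 4681 of the 41511 AAV-NAT10 peaks (11.3%), since 1 peak could meet several of the other list.

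The mice were male C57BL/6 animals given an adeno-associated virus (AAV), a gene delivery vector, that carried either green fluorescent protein (GFP, the control) or NAT10. Each virus had 1 immunoprecipitated and 1 input library from liver, 4 libraries in all, and each deposited list holds the peaks of 1 immunoprecipitate over its input. Dose, promoter, age and diet are not given in the labels, the protocol text names db/db and lean mice as RNA sources, and the antibody is described only as one against a protein of interest beside a library type that names ac4C. Read depth is unknown here, and there was no replicate, so no difference between the viruses was tested. The pairs were chosen by their borders in these 2 lists, and all lengths and border distances below are descriptions. Intervals are exact (Clopper-Pearson) 95% intervals for shares and cover counting error only. Of the 7 hepatocyte markers listed, such as Alb and Ttr, 1 had a peak in either list and 0 had overlapping peaks, so the liver label could not be checked through these markers. A peak reports enrichment over input and not the amount of RNA.

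NAT10 is an RNA acetyltransferase that makes N4-acetylcytidine (ac4C) on ribosomal RNA and, with THUMPD1, on transfer RNA. It has also been described on messenger RNA. A peak in such data is a stretch of the genome in which immunoprecipitated fragments outnumber the local input. Its borders here are the first and last base that the list gives for it. The shortest listed peak had 3 bases in AAV-GFP and 1 base in AAV-NAT10. Whether the peak caller drew the listed borders, or they follow exon borders, was not checked. Borders shared by both lists are thus not read as repeated calls.

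For 147 pairs both peaks began inside the RefSeq promoter window of their gene, which runs from 250 bases before to 50 bases after the annotated start (GRCm38.p6, the assembly of mm10), and began at different bases. The AAV-GFP peak began farther upstream in 68 of them and the AAV-NAT10 peak in 79. The distance was 22 bases at the median and 2 to 200 bases over all, and 142 of the 147 pairs ended at the same 3′ border. One of the borders lay exactly on the annotated start in 72 pairs, 36 times in AAV-GFP and 36 times in AAV-NAT10. Windows of 30 bases are shown for 5 genes, picked after their values were seen and all with less than the median distance, in which the capitals are the bases that 1 list covers and the other does not. Per3, Cry2 and Nr1d1 encode parts of the circadian clock, Ago3 an Argonaute protein and Mapk14 the stress kinase p38 alpha. All are written 5′ to 3′ on the gene's strand.
Per3: gcctcGAGActggactgcccgcgggtgggc
Cry2: ccaacGGGGCGGTCGGGCGGagcggcagac
Nr1d1: gtgtcACTggggcacgaggcgctccctgga
Ago3: cgagcGGGCTTCCGggggcgaccgggaaaa
Mapk14: agcggGGCCTCCTTggagctgttctcgcga

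The Per3 window lies at chr4:151044641-151044670 on the minus strand. The AAV-GFP peak began at the annotated start and the AAV-NAT10 peak 4 bases farther in, with lengths of 558 and 554 bases. The Cry2 window lies at chr2:92434045-92434074, also on the minus strand. There the AAV-GFP peak again began at the annotated start and the AAV-NAT10 peak 15 bases inside it, with lengths of 258 and 243 bases. Nr1d1, at chr11:98775353-98775382 on the minus strand, had the opposite order. Its AAV-NAT10 peak began at the annotated start and its AAV-GFP peak 3 bases inside, with lengths of 660 and 657 bases. At Ago3 (chr4:126429532-126429561, minus strand) both peaks began before the annotated start, 9 bases apart, and at Mapk14 (chr17:28691355-28691384, plus strand) both began after it, also 9 bases apart. In both genes the AAV-GFP peak reached farther upstream.

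Over all 4889 pairs, the longer peak was found about as often under either virus. The AAV-NAT10 peak was the longer in 2516 pairs (51.5%, 50.1 to 52.9), the AAV-GFP peak in 2371 (48.5%, 47.1 to 49.9), and 2 pairs had peaks of equal length. The median difference, AAV-NAT10 minus AAV-GFP, was 3 bases (order-statistic interval 1 to 6). The sizes were less even than the counts. Where the AAV-NAT10 peak was longer the difference had a median of 113 bases and quartiles of 36 and 391.75, and where the AAV-GFP peak was longer a median of 85 bases and quartiles of 28 and 255. More than 1000 bases separated the lengths in 323 pairs longer in AAV-NAT10 and in 208 longer in AAV-GFP. Peaks at least 1.5 times longer numbered 583 toward AAV-NAT10, or 1.95 percent of all overlapping pairs, and 479 toward AAV-GFP, or 1.6 percent; the rule used these same borders, so the shares are given as background alone.

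**Figure D1:**
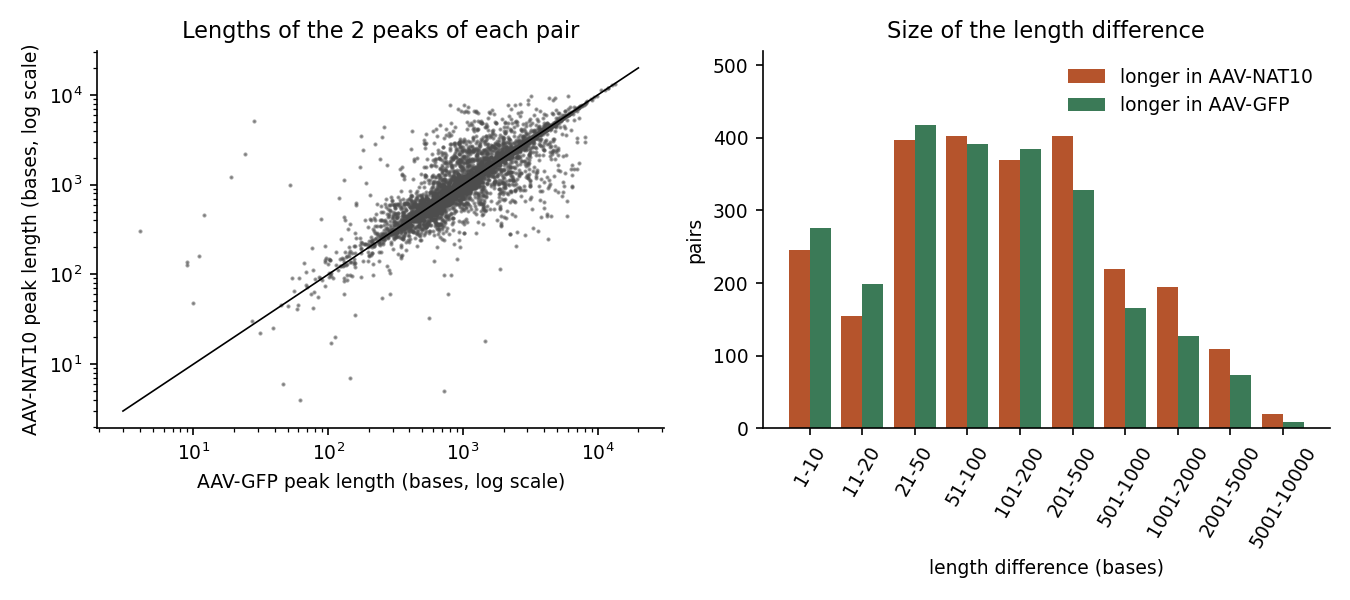
Left, length of the AAV-NAT10 peak against length of the AAV-GFP peak of each of the 4889 pairs in bases on log axes, with a line where both are equal. Right, number of pairs by size of the length difference in bases, split by the virus with the longer peak; the bars are close up to 200 bases, and above that the AAV-NAT10 bars are the taller.

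The shared bases made up 88.8% of the bases of either peak at the median (quartiles 68.2 and 96.7), over 90% in 2305 pairs and under 50% in 653. The distance between the starts plus the distance between the ends was 106 bases at the median (quartiles 34 and 348) and at most 100 bases in 2401 pairs (49.1%). It exceeded 1000 bases in 608 pairs (12.4%). The AAV-GFP peaks of the pairs covered 6.62 Mb and the AAV-NAT10 peaks 6.79 Mb, of which 6.25 Mb were common to both. Only the AAV-GFP peaks covered 371877 bases, and only the AAV-NAT10 peaks 539430. With their long peaks, the pairs held 32.5% of all peak bases of the AAV-GFP list and 29.7% of those of the AAV-NAT10 list.

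Usually only 1 border differed. The starts coincided in 2113 pairs (43.2%) and the ends in 1980 (40.5%), while 796 (16.3%) had no border in common. One peak lay inside the other in 4483 pairs, the AAV-GFP peak inside in 2287 and the AAV-NAT10 peak inside in 2196. The remaining 406 pairs (8.30%) were staggered, each peak reaching past the other on 1 side. Just inside the rule stood 57 pairs whose borders differed by 1 base in all and 131 by 2 or fewer. At its other edge, 12 pairs shared 10 bases or fewer, the smallest overlap being 3 bases in Zak, and 5 peak pairs lay within 10 bases of each other without sharing any.

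Pairs with differing borders were made of long peaks. Their median length was 984 bases (quartiles 608 and 1810.5) in AAV-GFP and 1003 (587 and 1921) in AAV-NAT10, against 169 bases (124 and 276) for peaks with identical borders. Peaks that overlapped none of the other list had medians of 152 and 157 bases. Among overlapping AAV-GFP peaks shorter than 200 bases, 0.808% had differing borders. The share was 12.3% from 200 bases, 51.8% from 500 bases, 48.2% from 1000 bases, 38.2% from 2000 bases and 33.1% (28.0 to 38.6) at 5000 bases or more. In AAV-NAT10 the same classes gave 0.763%, 13.6%, 49.7%, 47.1%, 40.1% and 35.3%. Both lists thus held the highest share between 500 and 2000 bases.

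The score of a peak is -10 times log10 of its p-value as the authors deposited it. It holds within its own list only and measures no change between viruses; the same is true of the fold. The share of differing borders varied less over score than over length. Over 6 score classes the share with differing borders lay between 14.9% and 17.9% in AAV-GFP and between 14.7% and 17.5% in AAV-NAT10. Within the AAV-GFP list the median score was 283.755 for differing borders, 278.79 for identical borders and 107.29 for peaks without a counterpart. Within the AAV-NAT10 list the medians were 467.01, 447.26 and 126.12. Fold enrichment, the authors' ratio over background, had medians of 5.91, 6.73 and 4.88 in AAV-GFP and 6.64, 7.47 and 4.92 in AAV-NAT10 for the same 3 classes. Within each list the pairs thus had a lower median fold than peaks with identical borders and a higher one than peaks with no counterpart. Inside a list the score also moved with the direction of the pair. Within AAV-GFP the median score was 259 where the AAV-NAT10 peak was longer and 312.725 where the AAV-GFP peak was longer, and within AAV-NAT10 it was 534.32 and 397.04.

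**Figure D2:**
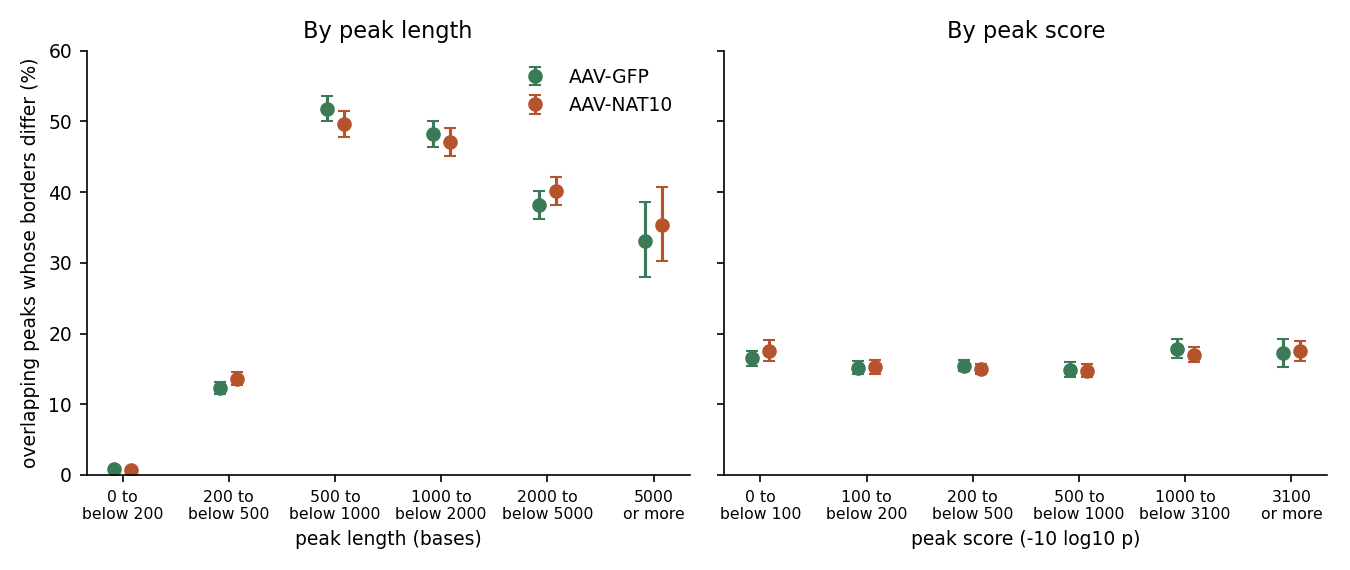
Share of overlapping peaks whose borders differ (percent), by peak length in bases (left) and by peak score (right), for each list; bars are exact 95% intervals for counting error. The share runs from 0.808% below 200 bases to 51.8% from 500 bases in AAV-GFP, and stays between 14.7% and 17.9% over the score classes of both lists.

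In most pairs with a known strand, the border that differed was the one toward the 3′ end of the transcript. The lists give no strand, so it was taken from the RefSeq promoter table for 3308 of the 4093 pairs with 1 differing border (80.8%). The 3′ border differed in 2493 of them (75.4%, 73.9 to 76.8) and the 5′ border in 815 (24.6%). Neither set leaned to 1 virus. With a differing 3′ border the AAV-NAT10 peak was longer in 1233 pairs and the AAV-GFP peak in 1260, and with a differing 5′ border in 425 and 390. The median distance between the differing borders was 80 bases (quartiles 26 and 217) at the 3′ side and 69 bases (24.5 and 227) at the 5′ side. In a further 624 pairs with a strand both borders differed, by 646.5 bases in all at the median, and there the AAV-NAT10 peak was longer in 365 and the AAV-GFP peak in 257.

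The pairs also lay late in their genes. With the middle of the AAV-GFP peak placed between the annotated start (0%) and end (100%) of its gene, the median was 85.0% (quartiles 48.5 and 96.6) for 3904 pairs with differing borders. For 19982 pairs with identical borders it was 64.8% (40.4 and 85.0). The last 10% of the gene held 43.0% (41.4 to 44.5) of the pairs with differing borders and 18.3% (17.7 to 18.8) of those with identical borders. The first 10% held 9.58% and 4.82%. Pairs with a differing 3′ border lay in the last 10% of the gene in 46.9% of cases and in the first 10% in 2.02%, and pairs with a differing 5′ border in 20.6% and 37.8%. Peak length moves with these places: the median AAV-GFP length was 1041 bases for a differing 3′ border and 648 for a differing 5′ border, and its part in the shares was not tested.

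**Figure D3:**
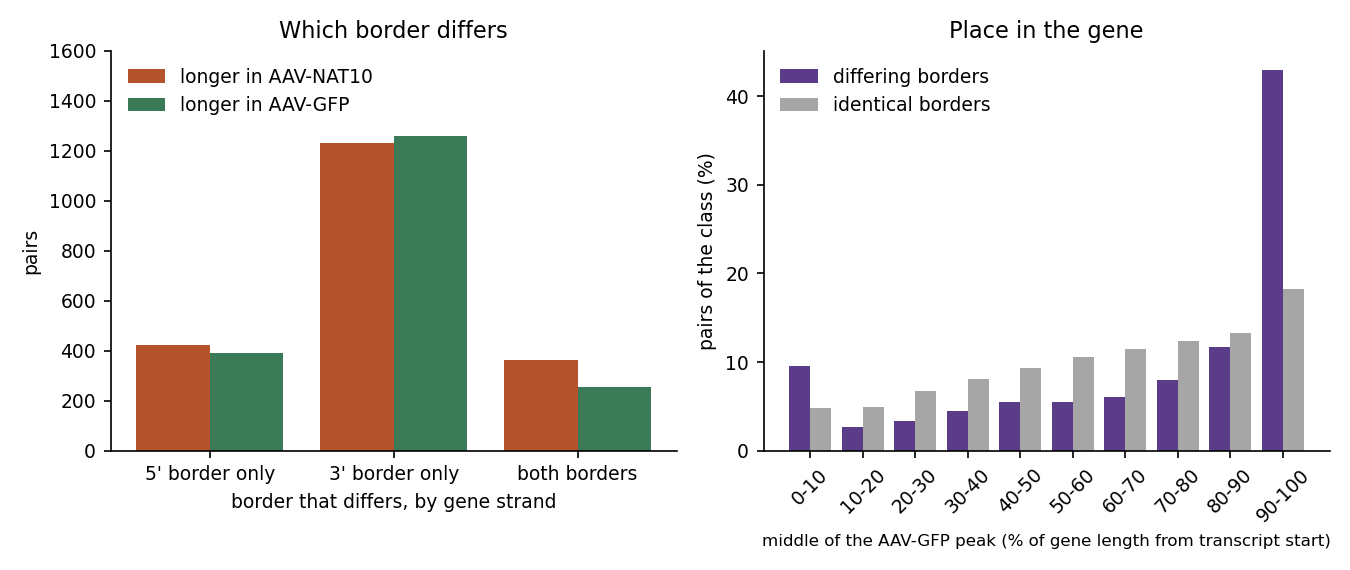
Left, number of pairs by the border that differs, read along the gene's strand, and by the virus with the longer peak; 2493 pairs differ at the 3′ border alone and 815 at the 5′ border alone. Right, percent of pairs in each 10% of gene length from the transcript start, for differing and identical borders; the last 10% holds 43.0% and 18.3%.

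At the annotated end itself, the AAV-GFP peak stopped exactly on the last base of the RefSeq gene in 293 of 3929 pairs (7.46%, 6.66 to 8.32) and the AAV-NAT10 peak in 339 (8.63%, 7.77 to 9.55). Of 20014 pairs with identical borders, 1509 stopped there (7.54%, 7.18 to 7.91). The classes were sorted by these same borders, so the shares are descriptions and no difference between classes or viruses was tested. In the pairs with differing borders both peaks stopped there in 98 cases, only the AAV-GFP peak in 195 and only the AAV-NAT10 peak in 241. The lists name 1 transcript for each peak, and the names differed in 303 pairs (6.20%, 5.54 to 6.91). In the 25001 pairs with identical borders they differed in 0. A name given by position would be the same for the same borders, so this 0 is not read as a result. Of the 303, the AAV-NAT10 peak was longer in 177 and the AAV-GFP peak in 126. In 19 pairs even the gene name differed, as at the adjoining Glt8d1 and Gnl3, whose peaks shared 9 bases, or Prelid1 and Mxd3, whose peaks shared 105. Such a pair joins RNA of neighbouring genes that the lists cannot tell apart.

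Some pairs arose where 1 peak of a list faced several of the other. Pairs that share a peak were gathered into 4494 places, of which 4162 held 1 peak of each list. A single AAV-GFP peak faced several AAV-NAT10 peaks at 139 places, several AAV-GFP peaks faced a single AAV-NAT10 peak at 156, and 37 places held several of both. These places held 438 of the 531 pairs whose lengths differed by more than 1000 bases, and all 20 of the largest pairs, 10 toward each virus. The summed bases at such a place differed far less than the pairs. A single AAV-GFP peak covered more bases than its several partners at 103 of 139 places, with a median difference of -71 bases (AAV-NAT10 minus AAV-GFP). A single AAV-NAT10 peak covered more at 133 of 156 places, with a median difference of 108.5 bases. The places were sorted by which list held the single peak, and a single peak also covers the gaps between its partners. The direction of these counts was thus largely set by the sorting. The 2 sums lay within 100 bases of each other at 57 and 62 of these places.

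Sp4, a zinc finger transcription factor, and Zkscan8, also a zinc finger gene, had 4 peaks against 1 in opposite directions. Where a gene is given 2 lengths, here and below, the first is that of AAV-GFP and the second that of AAV-NAT10. The Sp4 place (chr12:118232000-118238394) held 1 AAV-GFP peak of 6395 bases, at fold 13.36 and score 2640.25. It met 4 AAV-NAT10 peaks that covered 4867 bases together. Zkscan8 had 4 AAV-GFP peaks over 6426 bases and 1 AAV-NAT10 peak of 7742. It gave the largest difference of any pair, 6936 bases, although the sums of the place differed by 1316.

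Further genes with a peak that was single in AAV-GFP were Erbb4 and Prkca. Erbb4, a receptor tyrosine kinase, had 1 AAV-GFP peak of 5485 bases and 3 AAV-NAT10 peaks covering 3996 bases. Prkca, protein kinase C alpha, had a pair of 5904 and 656 bases, but its place summed to 5904 bases under AAV-GFP and 5937 under AAV-NAT10. A pair at Med20, a Mediator subunit, had 5440 bases under AAV-GFP and 750 under AAV-NAT10, and its place 5440 and 4382 bases. Amer1, a regulator of Wnt signalling, held 2 AAV-GFP and 3 AAV-NAT10 peaks with sums of 7978 and 7722 bases. The Prkca and Amer1 sums were nearly equal under the viruses, while those of Erbb4 and Med20 were larger in AAV-GFP.

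Among genes with a single AAV-NAT10 peak, Cdc73, a subunit of the PAF1 complex of transcription elongation, had the next largest difference among the named genes. Its AAV-NAT10 peak of 9761 bases (chr1:143598797-143608557) reached fold 17.36 and score 3100. The AAV-GFP peaks there had 3188 and 6046 bases, 9234 together, with folds of 4.79 and 7.93. At Usp15, a deubiquitinase, the sums were 7715 bases under AAV-GFP and 8682 under AAV-NAT10, and at Fam160a2 5662 and 7919. At Zmat3, a zinc finger gene, they were 6893 and 6902, so a pair difference of 5987 bases stood beside a place difference of 9. Zfp26 (7349 and 7407 bases), Trove2 (6526 and 6800) and Pag1 (6160 and 6651) also had sums that lay closer than their pairs.

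**Figure D4:**
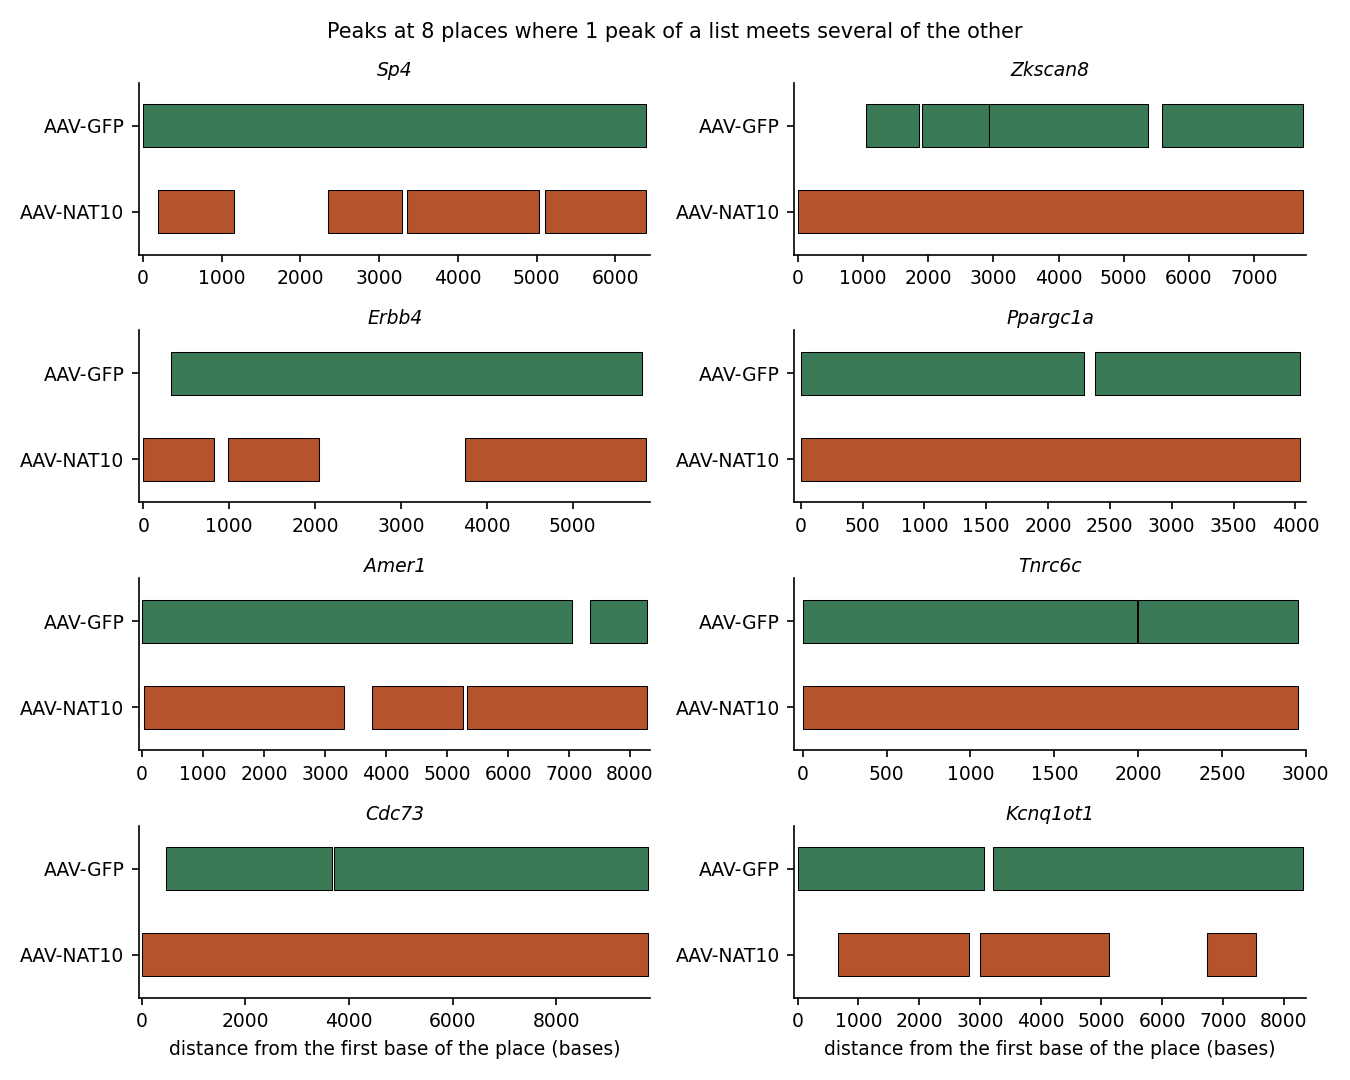
Peaks of the AAV-GFP list (green) and the AAV-NAT10 list (red-brown) at 8 places, drawn along the genome in bases from the first base of the place. Sp4 and Erbb4 show 1 AAV-GFP peak against several AAV-NAT10 peaks, Zkscan8, Cdc73, Ppargc1a and Tnrc6c 1 AAV-NAT10 peak against several AAV-GFP peaks, and Amer1 and Kcnq1ot1 have several peaks in both lists.

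Places with 1 peak in each list held the remaining differences. Their 4162 pairs were longer in AAV-NAT10 in 2131 cases and in AAV-GFP in 2029. At least 1.5-fold longer peaks numbered 287 and 227 there, and at least 5-fold longer ones 8 and 9. Genes below were picked after their values were seen, from those with the largest differences in each direction. Tmed8, a member of the p24 cargo protein family, had an AAV-GFP peak of 2679 bases and an AAV-NAT10 peak of 6390 with the same 5′ border. Tfcp2l1, a transcription factor, had 1191 and 4181 bases, Cep97, a centriole protein, 726 and 3271, and Camk1d, a calcium-dependent kinase, 609 and 2913. Rreb1, a zinc finger transcription factor, had 3389 and 5912 bases and a score of 3100 in both lists.

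Toward AAV-GFP, Adra1a, an alpha-1 adrenergic receptor, had 1899 bases under AAV-GFP and 372 under AAV-NAT10. Serpina9 had 2449 and 877 bases, at fold 11.63 and score 2788.13 within AAV-GFP and at 4.61 and 114.57 within AAV-NAT10. At Cwf19l2 a 1449-base AAV-GFP peak met an AAV-NAT10 peak of 18 bases. Peaks of so few bases occurred in both lists: Krba1 had 4 bases under AAV-GFP and 302 under AAV-NAT10, and Cpne3 had 62 and 4. Mup4, a major urinary protein gene, had 45 and 46 bases and folds of 188.9 under AAV-GFP and 3.98 under AAV-NAT10. Mup genes are close copies of each other, so reads of Mup4 are uncertain.

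By gene, 3492 of the 6869 genes with overlapping peaks had a pair with differing borders, or 50.8 percent. There was 1 pair in 2512 genes, 2 in 692 and 3 or more in 288. Of these 288, 36 had every pair longer in AAV-NAT10, 43 every pair longer in AAV-GFP, and 209 had both directions. Kcnq1ot1, a long noncoding RNA transcribed antisense to Kcnq1 in an imprinted region, had the most, 11 pairs, each longer in AAV-GFP. The lists gave it 12 peaks over 37775 bases in AAV-GFP and 10 peaks over 23275 in AAV-NAT10. Several of its pairs share a peak, so they are not separate observations. Its largest place (chr7:143268264-143276578) summed to 8175 and 5086 bases, and another (chr7:143279549-143286912) to 7207 and 7195. The place at chr7:143260101-143268226 summed to 7982 and 6427. The place at chr7:143293458-143296547 summed to 2976 and 3026, more in AAV-NAT10 although its pairs were longer in AAV-GFP. Without strand, reads of Kcnq1ot1 and of Kcnq1 cannot be told apart.

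The other 4 of the 5 genes with the most pairs had both directions. Herc1, a giant ubiquitin ligase, had 8 pairs, 6 longer in AAV-NAT10, beside 42 with identical borders. Its differences lay between 16 and 318 bases. Dido1 had 7 pairs, 3 longer in AAV-NAT10 and 4 in AAV-GFP. Zfp451 had 6, with 1 and 5, and Gucy1a2, a subunit of soluble guanylate cyclase, 6, with 2 and 4.

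Nat10, the gene that the vector carries, had 3 pairs on chromosome 2 and 5 with identical borders. The first (103753020 to 103753192 in AAV-GFP) had 173 bases under AAV-GFP and 255 under AAV-NAT10, the second 660 and 622, and the third 395 and 430. Within the AAV-GFP list their folds were 4.68, 8.2 and 3.81, with scores of 58.27, 272.47 and 89.96. Within the AAV-NAT10 list the folds were 15.98, 17.52 and 12.72, and each score was 3100. The lengths thus differed by 82, 38 and 35 bases in pairs whose AAV-NAT10 scores all lay at the value where scores pile up. In AAV-NAT10 liver the lists cannot tell RNA of the vector from RNA of the mouse gene. The AAV-NAT10 folds and scores of Nat10 thus cannot be assigned to either. Thumpd1, the partner of NAT10 on transfer RNA, had 1 pair of 1955 and 1976 bases. Of the 8 genes of NAT10 and its nucleolar and tRNA partners, 5 had overlapping peaks and 2 a pair.

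Fatty acid oxidation, uptake and lipid droplet genes had 8 of their 10 pairs longer in AAV-NAT10, with a median difference of 81.5 bases against 3 over all pairs. The AAV-NAT10 peak was longer in 51.5% of all pairs. Pairs were found in 8 of the 17 list genes with overlapping peaks (47.1%), near the share of all such genes. At Plin4, a lipid droplet coat protein, the AAV-GFP peak had 753 bases and the AAV-NAT10 peak 1459. At Ppargc1a, the coactivator PGC-1 alpha of mitochondrial and gluconeogenic genes, AAV-GFP peaks of 2289 and 1658 bases faced 1 AAV-NAT10 peak of 4035, and the place summed to 3947 and 4035 bases. Its 2 pairs are thus 1 joined peak, and with Plin4 they are the 3 pairs of the list that were at least 1.5 times longer. Acadl, an acyl-CoA dehydrogenase of beta-oxidation, had 95 and 137 bases, and Acsl5, which activates fatty acids, 676 and 798. Lipe, hormone-sensitive lipase, had pairs of 346 and 392 and of 966 and 1083 bases. Longer in AAV-GFP were Slc27a1, a fatty acid transporter, with 549 and 463 bases, and Acadm, medium-chain acyl-CoA dehydrogenase, with 644 and 640.

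Of 15 fatty acid and triglyceride synthesis genes with overlapping peaks, 4 had a pair (26.7%, against 50.8% of all genes with overlapping peaks), 3 of the 5 pairs being longer in AAV-NAT10. Elovl1, a fatty acid elongase, had 797 bases under AAV-GFP and 1056 under AAV-NAT10, and Acly, ATP citrate lyase, 127 and 154. Agpat3, an acyltransferase of phospholipid and triglyceride synthesis, had 274 and 124. Acaca, acetyl-CoA carboxylase, had 1 pair in each direction, 630 and 685 bases and 90 and 86, beside 39 pairs with identical borders. Cholesterol synthesis and uptake genes had a pair in 5 of 11 genes (45.5%, near that share), 3 longer in AAV-NAT10. Lss, lanosterol synthase, had 4141 and 4203 bases. Hmgcs1 (1872 and 1777 bases) and Idi1 (2124 and 2088), early enzymes of the pathway, were longer in AAV-GFP. Of 11 lipoprotein, ABC transporter and bile acid genes with overlapping peaks 2 had a pair (18.2%, against 50.8% of all such genes). They were the cholesterol exporter Abcg1 with 1668 and 1928 bases, and the nuclear receptor Nr5a2 with 764 and 724.

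Glucose metabolism and insulin signalling genes had 10 pairs in 7 of 16 genes (43.8%, against 50.8% of all genes with overlapping peaks). There were 5 pairs in each direction, with a median difference of 0.5 bases. Akt2, the main AKT kinase of insulin action in liver, had 1861 bases under AAV-GFP and 2765 under AAV-NAT10 with the same 5′ border. Its folds were 4.79 and 7.02 and its scores 576.19 and 2791.02 within the lists. Subunits of PI 3-kinase lay on both sides, the catalytic Pik3ca with 3775 and 3826 bases and the regulatory Pik3r1 with 2073 and 1728. The 3 pairs of Gsk3b, a kinase inhibited by insulin, had 532 and 629, 5579 and 5583, and 1530 and 1494 bases. Irs1, an insulin receptor substrate, had 4504 and 4501.

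RNA binding and translational control genes had 23 pairs in 12 of 30 genes, 12 longer in AAV-NAT10 and 11 in AAV-GFP. Tnrc6c, a partner of Argonaute in microRNA silencing, had 4 pairs. One had 132 bases under AAV-GFP and 1135 under AAV-NAT10. At another place AAV-GFP peaks of 1994 and 950 bases faced 1 AAV-NAT10 peak of 2951. Zc3h12a, an RNase that degrades inflammatory mRNAs, had 716 and 1440 bases. Larger in AAV-GFP were Paip1, a partner of poly(A) binding protein, with 3299 and 3055 bases, Eif4g3, a translation initiation factor, with 643 and 441, and Larp1, which binds the mRNAs of ribosomal proteins, with 427 and 297. Tnrc6b had a peak of 11991 bases under AAV-GFP and 11974 under AAV-NAT10, and Ago3 12851 and 12850, so very long peaks could differ by 17 and 1 bases.

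Inflammation and stress genes had 11 pairs in 9 of 16 genes (56.3%, against 50.8% of all genes with overlapping peaks). Of these pairs 7 were longer in AAV-GFP, and the median difference was -38 bases. Over all pairs the AAV-GFP peak was longer in 48.5%. Sel1l, a part of the machinery that degrades misfolded endoplasmic reticulum proteins, had 1048 bases under AAV-GFP and 618 under AAV-NAT10. Tlr4, the endotoxin receptor, had 2911 and 2694, Il1r1, an interleukin-1 receptor, 3224 and 3157, and Il6st, the signalling receptor subunit of the interleukin-6 family, 924 and 886 and 6084 and 6006. Stat3, the transcription factor downstream of Il6st, had 2214 and 2333, and its feedback inhibitor Socs3 2231 and 2240. Eif2ak3, the stress kinase PERK, had 1 pair in each direction, 985 and 1079 bases and 1082 and 975. Of 20 secreted plasma proteins 1 had overlapping peaks and 0 a pair.

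**Figure D5:**
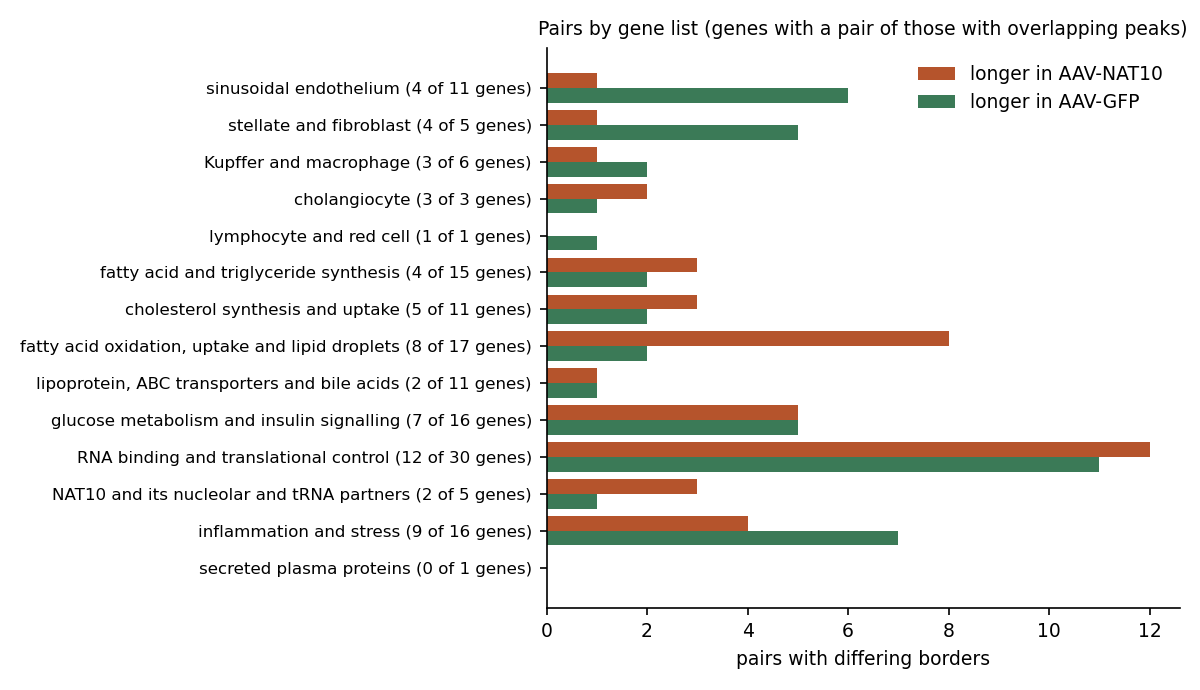
Number of pairs with differing borders in each gene list, by the virus with the longer peak; the label gives the genes with a pair out of those with overlapping peaks. Fatty acid oxidation genes have 8 pairs longer in AAV-NAT10 and 2 in AAV-GFP, and sinusoidal endothelium markers 1 and 6. Pairs of 1 gene can share a peak, as at Ppargc1a and Flt4.

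Markers of endothelial and stellate cells had most of their few pairs longer in AAV-GFP, against 48.5% of all pairs. Pairs of 1 gene can share a peak, and several of these pairs differed by few bases. Sinusoidal endothelium markers had 7 pairs in 4 of 11 genes (36.4%, against 50.8% of all genes with overlapping peaks). Of these pairs 1 was longer in AAV-NAT10 and 6 in AAV-GFP, with a median difference of -83 bases. Pairs with identical borders numbered 42 for Stab2, 6 for Kdr, 5 for Pecam1 and 3 for Flt4. Kdr, the VEGF receptor of blood vessels, had 1410 bases under AAV-GFP and 540 under AAV-NAT10, and a second pair of 691 and 684. Flt4, a VEGF receptor of lymphatic and sinusoidal endothelium, had 1 AAV-GFP peak of 1855 bases against AAV-NAT10 peaks of 1118 and 726, and sums of 1855 and 1844. The 2 pairs of Flt4 thus share 1 AAV-GFP peak. Stab2, a scavenger receptor of sinusoidal endothelium, had 1 pair in each direction, 158 and 209 and 861 and 778 bases. Pecam1 had 948 and 942. Stellate cell and fibroblast markers had 6 pairs in 4 of 5 genes (80.0%, against the same 50.8%). Of these pairs 5 were longer in AAV-GFP, with a median of -17. Pairs with identical borders numbered 21 for Reln, 7 for Hgf, 1 for Col4a1 and 0 for Lrat. Hgf, hepatocyte growth factor, had 869 and 512 bases and 476 and 421, and Lrat, which esterifies retinol for storage, 4550 and 4547. Col4a1 had 1350 and 1330 bases. Reln had 1 pair in each direction, 444 and 482 and 375 and 361.

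The remaining marker lists had few pairs. Kupffer cell and macrophage markers had 3, Csf1r with 630 bases under AAV-GFP and 469 under AAV-NAT10, Clec4f with 747 and 689, and Cd163 with 548 and 591. Cholangiocyte markers also had 3. Sox9, a transcription factor of bile duct cells, had 519 and 2561 bases, with folds of 4.68 and 13.26 and scores of 70.27 and 1285.52 in their lists, while Pkhd1 had 983 and 1018. Ptprc, the leukocyte marker CD45, had 1686 and 1381. In tissue RNA, a difference in the number of cells of a type and one in RNA per cell cannot be told apart. The part of the cell makeup in these border differences was not tested.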

How the data were processed

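RNA of mouse liver was immunoprecipitated and sequenced per the labels' protocols, with 1 immunoprecipitate and 1 input library per virus. The authors deposited 2 peak lists with MACS peak names, per the file headers. Positions are in mm10, as listed in the submitters' processing notes. For the aligner and for the version and parameters of MACS, the sources used here give nothing. The deposited fold enrichment is a linear ratio over background, per the file headers. The deposited peak score is -10 times log10 of the p-value, per the file headers, at least 50 in both lists and piled up at 3100 or slightly above. The FDR, deposited by the authors per the file headers, was read as a percent, with medians of 4.69 (AAV-GFP) and 3.05 (AAV-NAT10) in the pairs. Its largest values were 18.18 in the AAV-GFP list and 40.0 in the AAV-NAT10 list. It did not fall steadily with the score: Rreb1, at a score of 3100 in both lists, had 11.07 in AAV-GFP and 4.58 in AAV-NAT10. Read counts and depth are unknown here, so intervals cover the counting of peaks only.

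Starts count from 0 in the lists and are given here from 1. Pairs, lengths and places were computed with Python 3.11.15, numpy 2.4.6 and pandas 2.3.3, exact intervals with scipy 1.17.1 and figures with matplotlib 3.10.9. Shared starts, shared ends and length differences were checked on the AAV-GFP list against a copy with some peaks shortened by known amounts. Staggered pairs, lengthened peaks, places with several peaks and strand calls were not part of that check. Strand came from the RefSeq promoter table (GRCm38.p6), by gene ID, transcript, symbol or unique synonym, for 3932 of 4889 pairs (80.4%). Peak length is a span on the genome; exon borders were not used here. No test was made, with 1 library a group.

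The members, 9 gene lists and 6 marker lists were chosen with earlier results of these data known. The genes named were the 10 pairs with the largest length difference toward each virus, the 5 staggered pairs with the largest border distance toward each virus, the 5 genes with most pairs, up to 2 members a gene list toward each virus, and Nat10; predicted genes were passed over, and some genes of the rule and lists are not reported here. Others are list members or are said to be picked later. The alternatives were the 50% of each list with the highest fold, scores of at least 100, overlap of at least 0.5 of the shorter or of both peaks, at least 20 bases of difference at a border, and 1-to-1 pairs.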

Additional observations from a re-analysis of the deposited data

How the results depend on the processing

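Of 48 values, 8 results under 6 alternatives, 38 stayed within 1.5 times the reported count or inside the reported interval, 10 moved and 0 reversed. With the 50% of each list that had the highest fold there were 1627 pairs, 824 longer in AAV-NAT10 and 802 in AAV-GFP, 1497 with 1 border in common, 1557 with 1 peak inside the other and 1293 genes with a pair; this alternative keeps fewer peaks by construction. The share of differing 5′ borders, 24.6%, was 21.0% with those peaks, 22.4% with scores of at least 100 and 23.2% with overlap of at least 0.5 of both peaks, and the cause was not tested. The median length difference of 3 bases was 25 with at least 20 bases of difference at a border. That alternative leaves out the small differences by construction, so the 25 is not read as a larger difference between the lists. Length differences of at least 1.5 times fell from 583 and 479 pairs to 287 and 227 among 1-to-1 pairs. No paired analysis was possible because each virus had 1 immunoprecipitate and 1 input. Depth, exon borders and the spread between animals are unknown here, so a border that differs by few bases cannot be set against replicate error.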

Other observations

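The pathway names that the deposited lists carry gave further gene groups, chosen after the data were seen and given as counts. Genes of ubiquitin mediated proteolysis had a pair with differing borders in 60 of 98 genes with overlapping peaks (61.2%), and 61 of their 96 pairs were longer in AAV-NAT10 and 35 in AAV-GFP. Genes of Hippo signalling had one in 45 of 77 (58.4%), with 38 and 29 pairs. Insulin signalling genes had one in 41 of 88 (46.6%), with 41 pairs longer in AAV-NAT10 and 23 in AAV-GFP, and insulin resistance genes in 32 of 65, with 29 and 13. Fatty acid metabolism genes had one in 6 of 23 (26.1%) and PPAR signalling genes in 7 of 22 (31.8%). Both were lower than the 50.8% of all genes with overlapping peaks. Genes of non-alcoholic fatty liver disease had one in 23 of 51 (45.1%), with 17 and 15 pairs, and RNA transport genes in 37 of 82 (45.1%), with 24 and 28. Among further groups, mTOR signalling had 13 pairs longer in AAV-NAT10 and 15 in AAV-GFP, and AMPK signalling had 23 and 19. FoxO signalling had 31 and 25, and endocytosis 69 and 50. The fatty acid metabolism pairs numbered 4 and 3, and the PPAR signalling pairs 5 and 4. Over all pairs with differing borders, 51.5% were longer in AAV-NAT10 and 48.5% in AAV-GFP. No group was tested against these shares. Short peaks seldom had differing borders, and the groups were not matched for the number or length of their peaks. A gene can belong to several of the groups.

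Along the chromosomes, the share of overlapping pairs with differing borders ran from 12.6% on chromosome 14 to 18.7% on chromosome 7 among autosomes. It was 23.4% on the X chromosome, with 156 of 668 pairs, 81 longer in AAV-NAT10 and 75 in AAV-GFP. Amer1, with 4 pairs, lies there. On chromosome 5, 195 of 335 pairs (58.2%) were longer in AAV-NAT10, and on chromosome 14, 69 of 163 (42.3%).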
